A study of Ogataea polymorpha NCYC 495 leu1.1 with 8 samples.

Results

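The 150 genes described here are those with the brightest hybridisation signal among the genes of Hansenula polymorpha whose transcript ratio between methanol and glucose stayed close to 1 in each of 4 cultures. They were chosen by the measured values. A gene qualified when the absolute log2 ratio of methanol over glucose was below 0.5 (a change of less than 1.41-fold) in every culture, and the 150 qualifying genes with the highest A-value were kept. The A-value is the mean log2 processed signal of both dyes over the 8 arrays. Of 5999 genes on the array 985 (16.4%) met the ratio limit, so that the 150 genes are the upper end of that group and the other 835 are dimmer. A total of 1086 genes had an A-value as high as the 150 genes or higher, and 936 of them lay outside the ratio limit. The ratios and A-values of the 150 genes are therefore given as a description. The difference between the dye orientations, which the choice did not use, is the test on which statements about them rest. Counts from the fit of methanol against glucose are printed beside their background where it was taken, and nothing is read from them.

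H. polymorpha is a methylotrophic yeast: it can use methanol as sole carbon and energy source. On methanol, alcohol oxidase in the peroxisomes and the formaldehyde-oxidising enzymes of the cytosol are made in large amounts, whereas on glucose their genes are repressed and glycolysis supplies energy. Transcripts that keep their level when the carbon source changes are of practical use as references for other measurements. Genes of glycolysis and of the cytoskeleton are the usual candidates for that role in yeasts.

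All cultures were of the leucine-auxotrophic strain NCYC 495 leu1.1 and were grown in batch at 37 °C. In the glucose group RNA was taken from cells that had been pre-cultivated extensively on glucose, at the moment of transfer (OD660 2.3). In the methanol group it was taken after transfer to fresh mineral medium with 0.5% methanol at OD660 0.2 and 2 hours of incubation. The 4 cultures were independent and each gave both samples, so that the carbon source, the fresh medium and the lower cell density changed together and cannot be told apart. Each pair of RNA samples was hybridised to 2 arrays with exchanged Cy5 and Cy3 dyes. The same amount of RNA was labelled from each sample and the signals were normalised within an array. A ratio near 1 thus means an unchanged share of the RNA, and the RNA content of a cell was not measured.

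Depending on the channel, 90.6% to 98.3% of all gene probes gave a signal well above background. The 150 genes were well above background in both channels of all 8 arrays, and none of them had a saturated spot. The labels were borne out by the genes of methanol metabolism. FMD (Hp16g114, formate dehydrogenase) had log2 ratios of 8.05, 7.97, 7.76 and 7.52 in cultures 1 to 4, and AOX (Hp19g106, alcohol oxidase) had 5.10, 1.86, 4.32 and 2.45. Both were upregulated in every culture.

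None of the 150 genes is named in the sources used here. The gene table of the study could be read only in part (1998 of the gene identifiers, 0 of them among the 150), and descriptions in its other part were not used here. The array files give each gene only its Hp identifier, 0 of the identifiers occur among the 5233 genes of the RefSeq annotation (assembly Hanpo2), and none of the 150 is in the study's lists of PEX, ATG, glycolysis, gluconeogenesis, β-oxidation and methanol genes. No function or sequence is therefore assigned to any of them. What the identifiers do give is the origin of the gene model. Identifiers Hp1 to Hp48 stand for contigs of the genome project, and Hp50 and Hp51 for additional database sequences. The 150 genes came from 32 contigs, with 16 genes on contig 24, 14 on contig 15 and 13 on contig 47. These are contigs with many genes, and the 150 genes made up 2.94%, 2.84% and 3.04% of the measured genes of each. None of the 150 was an Hp50 or Hp51 gene, a class that held 180 of all 5999 genes (3.00%), 22 of the 835 dimmer genes within the ratio limit and 12 of the 936 equally bright genes outside it.

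The A-values of the 150 genes ran from 13.20 to 16.71 with a median of 13.96, which is an 11.3-fold range of signal. The median over all genes was 11.20. These are signals of different probes and they do not rank the genes by transcript number. Just inside the limit on signal were Hp26g443 (A-value 13.21) and Hp47g827 (13.20), and just outside it were Hp15g1060 and Hp24g591 (both 13.19). At the limit on the ratio, the largest absolute log2 ratio in a culture was 0.50 for Hp44g720 and also 0.50 for Hp25g391a, both just inside. It was also 0.50 for Hp27g387 and Hp14g171, both just outside. The latter pair was kept out by culture 1 alone: Hp14g171 had log2 ratios of 0.50, 0.16, -0.10 and 0.01 in cultures 1 to 4.

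**Figure D1:**
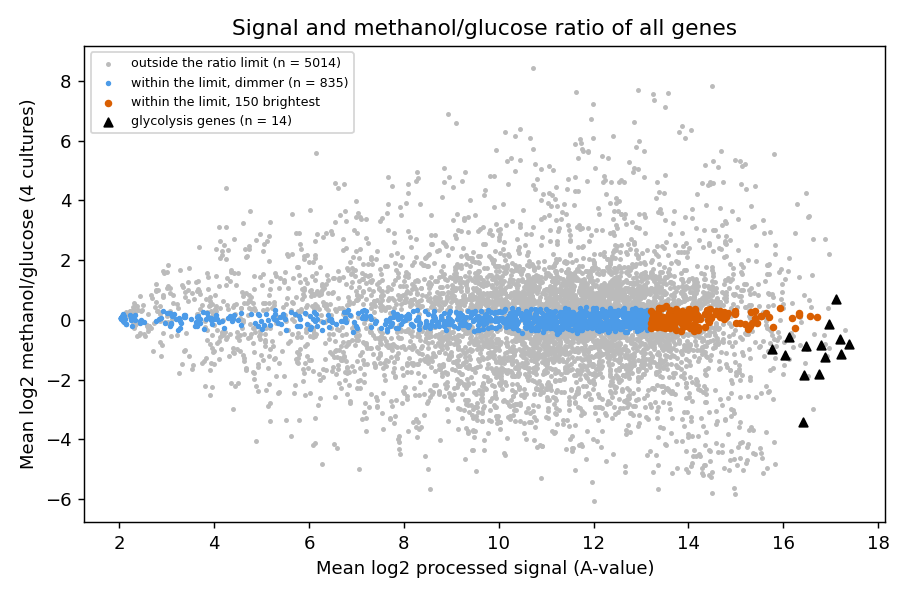
Mean log2 methanol/glucose over 4 cultures (vertical axis) against the mean log2 processed signal (horizontal axis) for all 5999 genes. The 150 genes (orange) form the bright end of the 985 genes within the ratio limit, with A-values from 13.20 to 16.71, and the 14 glycolysis genes (triangles) lie at similar or higher signal and outside the limit.

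Within the limits, the direction of the ratios differed between the cultures. The median log2 ratio of the 150 genes was -0.06 in culture 1, 0.10 in culture 2, 0.07 in culture 3 and 0.10 in culture 4. Over all genes the medians were 0.05, 0.02, 0.05 and 0.02. In the 936 equally bright genes outside the ratio limit they were -0.29, -0.11, -0.06 and 0.01, and in the 835 dimmer genes within it 0.04, 0.01, 0.02 and -0.03. Culture 1 thus lay lower than the other 3 both for the 150 genes and, by a wider margin, for the equally bright genes outside the limit. In culture 1 the ratio was below 0 for 87 of the 150 genes, against 53, 63 and 60 in cultures 2, 3 and 4. The mean over the cultures was above 0 for 90 genes and below 0 for 60, and its median was 0.07 against 0.04 over all genes. The median ratio of the 150 genes had an SD of 0.08 between the 4 cultures, so no lean to either side is read from this. The ratio had the same sign in all 4 cultures for 69 genes, of which 41 were higher on methanol and 28 lower. For 33 further genes culture 1 alone had the opposite sign, against 13, 3 and 8 genes for cultures 2, 3 and 4.

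**Figure D2:**
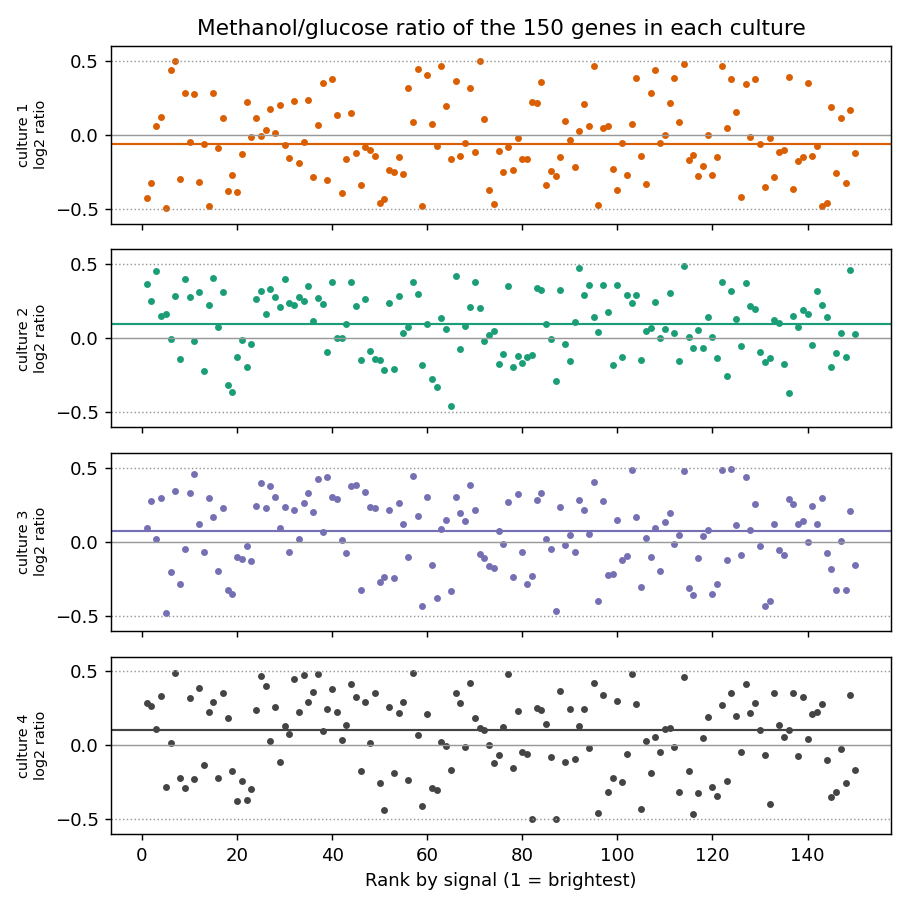
Log2 methanol/glucose of each of the 150 genes (points) in cultures 1 to 4 (panels), in order of signal from the brightest (rank 1) to the dimmest. Coloured lines are the medians (-0.06, 0.10, 0.07 and 0.10) and dotted lines the limits of 0.5 that the choice set.

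The spread of the log2 ratio between cultures had a median SD of 0.15 for the 150 genes (n = 4 cultures) and ranged from 0.011 to 0.38. It was 0.16 for the dimmer genes within the limit, 0.29 for the equally bright genes outside it and 0.26 over all genes; the limit itself bounds the first 2 of these values. Across the 150 genes the ratios of cultures 3 and 4 correlated with r = 0.82, those of culture 2 with r = 0.65 and 0.64 to cultures 3 and 4, and those of culture 1 with r = 0.28 to 0.45 to the others. These r are a description across genes, which are not independent replicates, within a range that the limit cuts off.

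The signals of the 2 carbon sources overlapped for each of the 150 genes (0 without overlap, against 41.8% of all genes). The rule forces this, because the signals on glucose differed between cultures by more than the ratio limit in every one of them, and nothing is read from it. The cultures differed in overall signal: the median log2 signal of all genes on glucose was 11.57, 10.99, 10.73 and 11.53 in cultures 1 to 4. Relative to the median gene of the same culture and carbon source, the 150 genes stood 2.81, 2.70, 2.70 and 2.68 log2 units higher on glucose (median over the genes) and 2.82, 2.84, 2.77 and 2.79 on methanol. On this relative scale the SD between cultures had a median of 0.13 on glucose and 0.15 on methanol. For the dimmer genes within the ratio limit it was 0.15 and 0.18, for all genes 0.19 and 0.25, and for the equally bright genes outside the ratio limit 0.18 and 0.25. Both groups within the ratio limit thus had the lower medians, with those of the 150 genes the lowest by a small margin that was not tested. The ratio that the choice limited is formed from these same signals, so the medians are only a description.

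The brightest of the 150 genes was Hp33g34. Its log2 signal was 17.05, 16.25, 16.48 and 16.88 on glucose and 16.63, 16.62, 16.58 and 17.16 on methanol in cultures 1 to 4. The log2 ratios were -0.43, 0.37, 0.09 and 0.29, so that culture 1 was lower on methanol and the other 3 were higher. Hp31g10 followed with 16.94, 16.17, 16.23 and 16.69 on glucose and 16.61, 16.42, 16.50 and 16.95 on methanol. It showed the same division, with a log2 ratio of -0.33 in culture 1 and of 0.25, 0.27 and 0.27 in cultures 2, 3 and 4. In both genes the signals of the carbon sources overlapped.

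The next genes in order of signal each had a pattern of their own. Hp31g77 had log2 ratios of 0.06, 0.45, 0.02 and 0.11, with culture 2 the highest. Hp15g427 was higher on methanol in all 4 cultures, with 0.12, 0.15, 0.30 and 0.33, a mean of 0.23 ± 0.10 (SD, n = 4). Hp39g796 had -0.49, 0.17, -0.48 and -0.28 and was lower on methanol in 3 cultures. Hp27g67 was at 0.44 in culture 1 and at 0.00, -0.20 and 0.02 in the others. These 6 genes were the only ones of the 150 with an A-value of 16 or more.

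Among the 10 brightest, Hp14g8 had the smallest spread between cultures, and Hp44g720 lay next to the ratio limit. Hp44g720 was higher on methanol in each culture (0.50, 0.29, 0.34 and 0.49), with a mean log2 ratio of 0.41 ± 0.11 (SD, n = 4). Hp14g8 was lower in each culture (-0.30, -0.14, -0.29 and -0.22), with a mean of -0.24 ± 0.07 (SD, n = 4). Hp31g578 went from 0.40 in culture 2 to -0.29 in culture 4, with 0.29 and -0.05 in cultures 1 and 3. Hp5g115 had -0.05, 0.28, 0.33 and 0.32. The 10 genes thus held both steady small differences and cultures of opposite sign.

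The genes with the smallest changes of all were dimmer members. In Hp24g511 no culture departed from 0 by more than 0.10 on the log2 scale. Its log2 signals were 13.94, 13.15, 12.91 and 13.46 on glucose and 13.87, 13.06, 12.88 and 13.56 on methanol. Hp35g80 followed with a largest absolute log2 ratio of 0.11, and log2 signals of 14.20, 13.64, 13.70 and 14.36 on glucose and 14.30, 13.62, 13.59 and 14.47 on methanol. For Hp5g385, Hp33g285 and Hp31g652 the largest absolute log2 ratio was 0.11, 0.11 and 0.13. All 4 cultures stayed below 0.25 for 32 of the 150 genes, and for 47 genes at least 1 culture reached 0.4. The largest of the 4 was that of culture 1 in 49 genes, of culture 4 in 46, of culture 2 in 29 and of culture 3 in 26.

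With limma and Benjamini-Hochberg adjustment over all 5999 genes, 22 of the 150 genes had an adjusted p below 0.05 with the ratio higher on methanol and 8 with the ratio lower. Over all genes these shares were 38.7% and 36.6%. The contrast is the one by which the genes were chosen, so the counts are printed beside that background and nothing is read from them. The mean log2 ratios of these 30 genes were between 0.24 and 0.48 in size, and all 30 had the same sign in all 4 cultures. The ratio limit caps these sizes and the call favours an even sign, so both are only a description. Without culture 1, 2, 3 or 4 the count in these 150 genes was 45, 11, 5 and 5. The share over all genes was not taken in these fits, so nothing is read from these counts either.

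Whether a bright gene with an even ratio in 3 cultures was even in the fourth was examined with a culture the choice had not used. The limits on ratio and signal were applied to 3 cultures, and the 150 genes so found were looked up in the culture left out. In culture 2, 144 of 150 such genes (96%) were again below 0.5, in culture 3 142 (94.7%) and in culture 4 129 (86%). In culture 1 only 102 (68%) were. Among all genes as bright as these, the chosen genes included, the shares were 27.4%, 30.6%, 26.9% and 26.5% in cultures 1 to 4, and over all genes 31.0%, 35.0%, 31.2% and 31.7%. The chosen genes had the higher share in each of the 4 cultures left out. That was likely beforehand, because the other genes as bright had not met the ratio limit in the 3 cultures used. The shares are therefore a description. No formal test was made of these shares, because genes are not independent replicates.

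**Figure D3:**
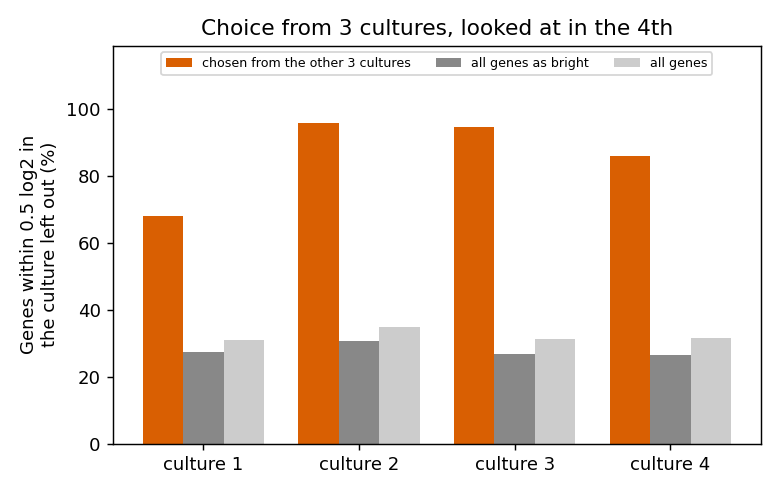
Percentage of genes with an absolute log2 methanol/glucose below 0.5 in the culture that was left out of the choice (horizontal axis). Orange bars are the 150 genes chosen from the other 3 cultures (68%, 96%, 94.7% and 86%), and grey bars are all genes as bright and all genes.

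Culture 1 also stood apart in the direction of the exceptions. Of the 150 genes chosen from cultures 2, 3 and 4, 37 were at or below -0.5 in culture 1 and 11 at or above 0.5. Their median log2 ratio there was -0.15. In the other cultures left out, the median was 0.10, 0.10 and 0.12, and every gene was within 1 log2 unit, against 141 of 150 genes in culture 1. The largest departures in culture 1 were -2.60 for Hp5g528, -2.11 for Hp26g207 and -1.70 for Hp31g297. Hp26g207 encodes 3-phosphoglycerate kinase, a glycolytic enzyme that forms ATP, and its log2 ratios in cultures 2, 3 and 4 were -0.40, 0.03 and -0.12. Outside culture 1 the largest departures were smaller: 0.98 for Hp29g25 in culture 4, -0.92 for Hp31g58 in culture 2 and 0.60 for Hp19g237 in culture 3. The genes of this paragraph are not among the 150.

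The dye orientation was the comparison that the choice of genes left free, because the ratio of a culture is the mean of its 2 arrays. For each culture the log2 ratio on the array with glucose in Cy5 was subtracted from that on the array with methanol in Cy5, so that a gene without dye effect has a difference of 0. By limma with Benjamini-Hochberg adjustment over all genes, this difference was above 0 for 33 of the 150 genes and below 0 for 30 (n = 4 cultures), against 15.2% and 21.1% of all genes. Together 42.0% of the 150 genes had an orientation difference, against 36.3% of all genes, 35.3% of the dimmer genes within the ratio limit and 52.6% of the equally bright genes outside it. The share in the 150 genes is thus near the background. Without culture 1, 2, 3 or 4 the same 150 genes gave 49, 24, 36 and 34 calls in place of 63, and the share over all genes was 31.7%, 18.5%, 21.2% and 22.4%. The differences were mostly small. Their median size was 0.12 for the 150 genes and 0.13 over all genes, and a difference of more than 0.5 was found in 4 of the 150 genes (2.67%), in 5.07% of all genes and in 17.7% of the equally bright genes outside the limit.

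The 4 genes with a difference above 0.5 were among the 6 brightest. In Hp33g34 the log2 ratio was -0.87, -0.08, -0.18 and -0.15 in cultures 1 to 4 when glucose RNA carried Cy5. When methanol RNA carried Cy5 it was 0.02, 0.81, 0.37 and 0.72. The 4 arrays of one orientation lay below 0 and the 4 of the other above it. The difference was 0.80 ± 0.16 (SD, n = 4, adjusted p = 0.0027, limma), and the mean ratio changed from 0.80-fold to 1.40-fold with the labelling. In Hp15g427 the difference was 0.61 ± 0.14 (SD, n = 4, adjusted p = 0.0036, limma), and its mean ratio was 0.95-fold in the first orientation and 1.44-fold in the second. In Hp27g67 the difference was 0.58 ± 0.20 and in Hp39g796 0.55 ± 0.08 (SD, n = 4), with adjusted p of 0.0071 and 0.0023 (limma).

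At the other end, Hp24g629 had the largest difference below 0, -0.34 ± 0.14 (SD, n = 4, adjusted p = 0.013, limma), with mean log2 ratios of 0.41 and 0.07 in the 2 orientations. Hp15g61, Hp37g193, Hp35g37 and Hp20g58 followed with differences of -0.33, -0.30, -0.29 and -0.28. These 5 genes had A-values between 13.24 and 13.90, in the lower part of the range of signal. The difference with the smallest spread among the extremes was that of Hp39g23, 0.47 ± 0.011 (SD, n = 4, adjusted p = 0.0019, limma), whose mean log2 ratio of 0.02 was made of -0.22 in one orientation and 0.25 in the other.

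The size and direction of the orientation difference changed with the signal. All 6 of the genes with an A-value of 16 or more had a difference above 0, with a median of 0.56, and all 6 were called. Of the 16 genes between 15 and 16, 14 were above 0 (median 0.10), 6 were called above 0 and 0 below. Of the 48 genes between 14 and 15, 24 were above 0 (median 0.00), with 10 called above and 7 below. Of the 80 genes under 14, 29 were above 0 (median -0.06), with 11 called above and 23 below. The share called among all genes of each class was not taken, so only the medians are compared. The same order was seen in the genes outside the ratio limit, whose median difference was -0.02 at an A-value of 13 to 14, 0.11 at 14 to 15, 0.38 at 15 to 16 and 0.80 above 16. The dye difference with signal is thus not particular to the 150 genes. On single arrays, 114 of the 150 genes (76.0%) were below 0.5 on each of the 8 arrays, against 66.5% of the dimmer genes within the limit, and the largest single value was 0.87.

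**Figure D4:**
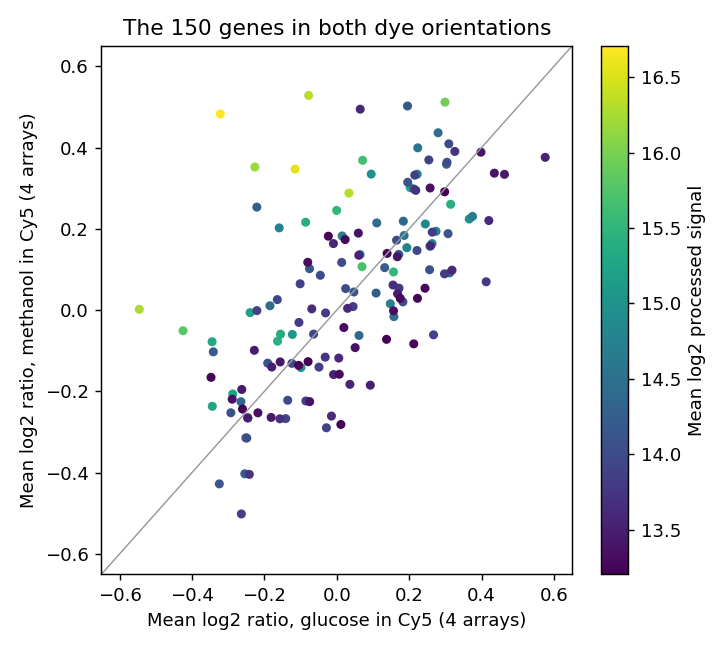
Mean log2 methanol/glucose of each of the 150 genes on the 4 arrays with methanol in Cy5 (vertical axis) against that on the 4 arrays with glucose in Cy5 (horizontal axis), coloured by mean log2 signal. The line marks equal values; the 6 brightest genes (yellow to light green) all lie above it, by up to 0.80.

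The share of genes that met the ratio limit varied with signal without a single trend: 183 of 1027 genes met it below an A-value of 8 and 129 of 990 at 8 to 10, and lower shares were seen only above 14. Of the genes with an A-value of 12 to 13, 19.2% (185 of 966) were within the limit, and of those between 13 and 14 17.0% (110 of 648). The share was 12.4% (48 of 386) at 14 to 15, 9.76% (16 of 164) at 15 to 16 and 10.5% (6 of 57) at 16 and above. The median size of the mean log2 ratio was 0.93 at 8 to 10, 0.79 at 12 to 13, 1.21 at 15 to 16 and 0.89 at 16 and above, with no steady rise. These shares describe the array as a whole and were not tested. They mean that all genes within the limit above 14 are among the 150, together with 80 of the 110 between 13 and 14.

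**Figure D5:**
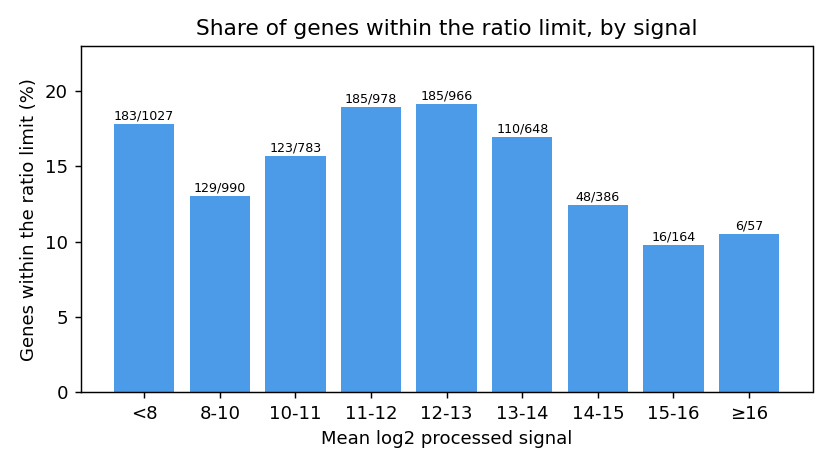
Percentage of genes with an absolute log2 methanol/glucose below 0.5 in all 4 cultures (vertical axis), by mean log2 processed signal (horizontal axis). Numbers over the bars are genes within the limit of all genes in the class; the share was 19.2% at 12 to 13 and 9.76% at 15 to 16.

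The genes named in the study's lists were set beside the 150 genes. These lists cover 89 measured genes, of which 32 were as bright as the 150 and 5 were within the ratio limit, but none was both. Of all 5999 genes 18.1% were as bright, 16.4% were within the limit and 150 were both. At that share few of 89 genes would be both, so nothing is read from their absence. Those within the limit were dimmer: 4 of 25 PEX genes, which encode proteins of peroxisome formation, and 1 of 27 ATG genes, which encode proteins of autophagy. One of them was PEX20 (Hp11g43, a co-receptor for protein import into peroxisomes), with an A-value of 11.98 and log2 ratios of -0.02, -0.46, 0.31 and 0.14.

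All 14 glycolysis genes were bright enough, with A-values from 15.77 to 17.39, and 8 of them had a higher signal than the brightest of the 150. None was within the ratio limit in culture 1, where their log2 ratios lay between -5.70 and -0.83, but 2 were in culture 2, 6 in culture 3 and 10 in culture 4. Glyceraldehyde-3-phosphate dehydrogenase (Hp25g306), a glycolytic enzyme whose transcript is often used as a reference, had log2 ratios of -2.10, -0.56, -0.38 and -0.14 in cultures 1 to 4. The α subunit of pyruvate dehydrogenase (Hp6g262), which feeds acetyl-CoA to the tricarboxylic acid cycle, had -1.63, -0.68, -0.13 and 0.22. Neither passed the test (adjusted p = 0.069 and 0.14, limma), which does not show that they were unchanged. The only glycolysis gene within the limit in cultures 2, 3 and 4 was that of 3-phosphoglycerate kinase. No Hp identifier for actin was found in the sources used here, and its values are not given.

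Just beyond the ratio limit, 165 genes as bright as the 150 had a largest absolute log2 ratio between 0.5 and 0.8, 85 with a mean ratio above 0 and 80 below. For 20 of them a description was found in the readable part of the gene table that accompanies the study. That part holds only genes higher on methanol, so the direction of these genes follows from their having a name. The 12 examples below were chosen after their values were seen, and names are those of the closest match in other yeasts or organisms. They were upregulated between 1.49- and 1.63-fold, a size that the range of ratios they were taken from sets. Their adjusted p (at most 0.0082, limma) comes from the contrast by which they were chosen, and nothing is read from it. Genes of protein turnover were those for the proteasome chains Y13 (Hp27g191) and Y7 (Hp44g366) and for RPN10 (Hp9g341), a ubiquitin receptor of the proteasome. The log2 ratios were 0.66, 0.77, 0.75 and 0.64 for Y13 and 0.47, 0.67, 0.61 and 0.61 for Y7. RPN10 had 0.17, 0.64, 0.77 and 0.74, again with culture 1 the lowest. SMT3 (Hp39g486), the yeast SUMO modifier, had 0.38, 0.72, 0.65 and 0.74.

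The remaining examples had other roles. DNM1 (Hp39g301), a dynamin-related protein of organelle fission, had log2 ratios of 0.53, 0.72, 0.66 and 0.65. The study, with its 2-fold limit, reports the Dnm1-dependent fission genes as not differentially expressed, and the change seen here is below that limit. RVS167 (Hp6g295), which acts in endocytosis, had 0.51, 0.69, 0.70 and 0.76. GAL83 (Hp47g647), a β subunit of the Snf1 kinase that acts in glucose derepression in Saccharomyces cerevisiae, had 0.40, 0.51, 0.67 and 0.75. PTC1 (Hp11g62), a protein phosphatase, had 0.60, 0.59, 0.71 and 0.76. A peptidylprolyl isomerase (Hp31g152) had 0.35, 0.77, 0.72 and 0.75, a mitochondrial ribosomal protein (Hp33g338) 0.30, 0.75, 0.63 and 0.70, a DNA topoisomerase (Hp35g61) 0.70, 0.65, 0.43 and 0.52, and RGR1 (Hp6g302), a subunit of the Mediator complex, 0.55, 0.49, 0.76 and 0.63. Each of these genes was higher on methanol in all 4 cultures. Their direction and their nearness to the limit follow from how they were taken, so nothing is read from either.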

How the data were processed

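Two-colour Agilent arrays of 4 cultures (8 arrays, dye-swapped) were used. The authors deposited Feature Extraction files; per the labels and the methods, the deposited processed signal intensity per spot and dye followed spatial detrending and dye normalisation without background subtraction. The deposited log10 ratios of Feature Extraction and the deposited series table, whose values stood 5 positions from their identifiers, served as alternatives. Outlier spots were left out and saturated spots kept. Log2 ratios of the 2 spots, then of the 2 arrays of a culture, were averaged (n = 4 cultures) and fitted with an intercept in limma 3.58.1 (R 4.3.3), with Benjamini-Hochberg adjustment over 5999 genes. The orientation difference was fitted likewise.

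The 150 genes, the gene lists and the tests were chosen with earlier results of these data known, and the look at a culture left out was added after the data had been seen. The rule for named genes took the 10 brightest of the 150, the 5 with the smallest largest ratio, those on either side of both limits, the 5 with the largest orientation difference in each direction, members of the study's lists, common reference genes, FMD and AOX. The planned lists by function could not be applied, since no product names were found for the 150 genes; probe sequences and actin were not analysed here. Columns of the authors' comparisons (Feature Extraction's p-values and errors of the log ratio) were not used.

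The glucose and methanol samples of a culture are paired by the study, and the pair is contained in the ratio. After centring on the median, the departures of both samples of 1 culture from their carbon source's mean correlated across all genes with r of 0.25, 0.38, 0.45 and 0.30 in cultures 1 to 4; both share arrays. On simulated data the fit found 73 of 100 genes with a planted log2 ratio of 1 and 93 of 100 with 2 for methanol against glucose. For the orientation it found 81 of 100 with 0.5 and 95 of 100 with 1. No other genes changed in the simulation. In the data 38.7% of genes were called higher and 36.6% lower on methanol, so the shares found need not hold for the data. The number of arrays limits the precision. Alternatives were other background corrections and normalisations, centring, other sources and averages of the ratio, either orientation alone, outlier spots kept, no replicate block, the row of arrays on the slide, other moderation, a filter on dim probes, other limits, other rankings by signal, Cyber-T (the test named in the methods) and each culture left out. Tables and figures were made with Python 3.11.15, pandas 2.3.3 and matplotlib 3.10.9.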

Additional observations from a re-analysis of the deposited data

Results flagged for a closer look

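In 3 of 29 sets of 4 cultures examined for a culture far from the others (28 named genes and the median of the 150 genes), the far culture was culture 1. For values free of any choice, about 1 such set in 20 would be picked out by chance. Here the choice of genes used these ratios, and the sets share the same cultures. That rate therefore need not hold, and the count is a description. Hp31g10 had a log2 ratio of -0.33 in culture 1 against 0.25 to 0.27 in the others, and Hp5g115 had -0.050 against 0.28 to 0.33. The median log2 ratio of the 150 genes was -0.062 in culture 1 against 0.07 to 0.10.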

How the results depend on the processing

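Of the 985 genes within the ratio limit, 320 were left at a limit of 0.3, and 2518 genes met a limit of 1. At those limits 48 and 47 of the 150 genes were among the 150 brightest, and at 0.3 the median log2 ratio of the genes so chosen was -0.020 in place of 0.073. The following counts are of the 150 genes chosen anew under each alternative, unless the original 150 genes are named. For most of them the share over all genes was not taken. They describe the processing, and nothing about the 150 genes is read from them. For methanol against glucose 30 genes had an adjusted p below 0.05 (limma). With a culture left out there were 6 to 55 (55 without culture 1, and 13, 7 and 6 without cultures 2, 3 and 4). By Cyber-T over 16 spots, 84 of the original 150 genes had an unadjusted p below 0.05. That test counts the 16 spots as replicates, although only the 4 cultures were independent. Without the replicate block, that is without the pairing of the samples of a culture, the count in the original 150 genes was 0 by limma and also 0 at an unadjusted p below 0.05, while 2963 of all genes were still called. The 63 genes with an orientation difference became 24 to 53 with a culture left out (24, 36 and 33 without cultures 2, 3 and 4). Fits with a culture left out had fewer samples. Moderation with a trend and robust estimation gave 45 genes for methanol against glucose, and by construction 100 of the 150 were kept when only the 100 brightest were taken. The other alternatives moved the number of genes within the limit, the membership and these counts by less than 1.5 times, and the median by less than its spread between cultures. The orientation difference cannot be formed on arrays of 1 orientation alone, was not run with the arithmetic mean of spot ratios or without the replicate block, and under the filter and ranking alternatives values were computed for the choice of genes only.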
